A study of Mus musculus with 6 samples.

Results

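Lrp2, Cubn, Slc34a1, Slc5a2, Slc5a12, Slc3a1, Slc22a6, Slc22a8, Miox and Kap are 10 genes used by the proximal tubule, the first and most absorptive segment of the nephron. They were chosen as 2 endocytic receptor genes and 8 genes of proximal solute transport, metabolism and secretion. On the array 13 probes carry RefSeq accessions of these genes, 2 each for Cubn, Slc34a1 and Slc5a12, among 55681 probes in all, and the 10 genes stand among 14585 named genes that were tested. In Cy5 each of the 13 probes exceeded background well on all 6 arrays, so none entered through 1 group alone. RNA came from cells sorted as GFP+ and Tom+ collecting duct cells, from salt-stressed kidneys of C57BL/6 mice at postnatal day 1. MUT pools 1 to 3 came from Hoxb7cre+; R26RtdTomato; Bdkrb2f/f mice, in which the gene of the bradykinin B2 receptor is deleted where Cre acts. WT pools 1 to 3 came from Hoxb7cre+; R26RtdTomato; Bdkrb2+/+ mice. Both groups carried the Cre, which Hoxb7 sequences drive in the ureteric bud lineage, and the tdTomato reporter. How many mice made up a pool is not stated in the labels. The Cy5 channel of an array held 1 pool and the Cy3 channel always held WT pool 1 RNA, which its own array therefore compared with itself. Every value below is a log2 ratio to WT pool 1 RNA or a difference of such ratios.

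Proximal tubule cells take back most of the filtered glucose, phosphate, amino acids and small proteins. Megalin (Lrp2) and cubilin (Cubn) sit at the base of the brush border, bind filtered proteins and carry them into endosomes. Many but not all apical transporters of this segment use the sodium gradient, and organic anion transporters of the basolateral side take drugs and metabolites from the blood. The proximal tubule arises from nephron progenitors, not from the ureteric bud, from which the collecting duct grows. In bulk RNA fewer proximal cells and less RNA per proximal cell cannot be told apart.

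Promoters are shown for Lrp2, whose values followed the median of the 10 genes most closely, for Miox, which departed from it, and for Slc3a1, which held a motif. Promoters of 8 genes were found in the RefSeq table of build GRCm38.p6, and Slc5a2 and Slc5a12 were not matched. HNF4A is a transcription factor of proximal tubule differentiation. The HNF4 site CAAAGTCCA, searched on both strands, occurred in the 250 bases before the start of 1 of 8 genes, Slc3a1, against 0.384% of 32851 promoters. The 3 promoters are given 5′ to 3′ on the strand of the gene, and capitals mark the site on either strand.
Lrp2, chr2:69586030-69586279, minus strand: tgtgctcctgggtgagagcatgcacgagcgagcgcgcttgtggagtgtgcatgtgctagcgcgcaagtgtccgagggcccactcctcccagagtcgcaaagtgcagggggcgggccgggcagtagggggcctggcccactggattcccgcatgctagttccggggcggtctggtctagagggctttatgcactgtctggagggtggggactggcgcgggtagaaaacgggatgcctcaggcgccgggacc
Miox, chr15:89334223-89334472, plus strand: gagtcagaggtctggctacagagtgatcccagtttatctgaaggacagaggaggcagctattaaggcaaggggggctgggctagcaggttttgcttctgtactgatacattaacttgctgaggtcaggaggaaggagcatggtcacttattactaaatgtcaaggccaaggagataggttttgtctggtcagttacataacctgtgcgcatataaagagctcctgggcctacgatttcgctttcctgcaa
Slc3a1, chr17:85028097-85028346, plus strand: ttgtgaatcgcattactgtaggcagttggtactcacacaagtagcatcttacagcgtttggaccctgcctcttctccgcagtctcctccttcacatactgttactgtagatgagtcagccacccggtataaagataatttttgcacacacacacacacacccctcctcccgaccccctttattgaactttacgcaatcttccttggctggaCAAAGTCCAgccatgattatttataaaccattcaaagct
The HNF4 site of Slc3a1 begins 39 bases before the start, and these letters are not in the windows of Lrp2 and Miox. A match of letters describes the sequence and says nothing of binding.

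The deleted gene could not be followed. The single Bdkrb2 probe was above background on 0 of 6 arrays in either channel, and its log2 ratios were -0.02, 0.05 and -0.08 in MUT pools 1 to 3, against 0.12, 0.09 and -0.16 in WT pools 1 to 3 (exact two-sided permutation p = 0.8, where 3 against 3 allow none under 0.1). Across the arrays 27022 to 31310 probes were well above background in Cy5, and 26.1% of 29002 tested probes differed between MUT and WT pools by limma at an adjusted p under 0.05. Collecting duct markers were present, with 7 of 8 principal cell and all 8 intercalated cell genes above background on 6 arrays. Genes of other cell types were present too, 8 of 8 for the loop of Henle and distal tubule, 8 of 8 for stroma, 8 of 8 for nephron progenitors and 7 of 8 for podocytes. The share of called probes that were higher in MUT was 44.2% after loess, 77.3% under median centring and 99% under scaling to spike-in controls. These scalings moved the median difference of tested probes by 0.23 and 0.98 (log2), so directions below hold relative to the typical probe.

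MUT and WT pools were compared to ask how proximal tubule transcripts in the sorted cells differ when the B2 receptor gene is deleted in the ureteric lineage. Slc5a2, Miox and Kap fell in MUT pools, by 2.22-fold, 2.35-fold and 2.76-fold. The other 7, Lrp2, Cubn, Slc34a1, Slc5a12, Slc3a1, Slc22a6 and Slc22a8, did not pass the test, with differences between -0.42 and -0.12. A fall at the same threshold was called for 3 of 10 genes, against 18.8% of all genes tested, and a rise for 0 of 10, against 14%. The median difference was -0.36 over the 10 genes and -0.02 over all tested genes, and under spike-in scaling it was 0.62 over the 10 genes, with 7 of them above 0. Under median centring Lrp2, Slc22a6 and Slc22a8 were above 0. At the level of single pools, WT pool 2 had the lowest WT value of each of the 10 genes.

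**Figure D1:**
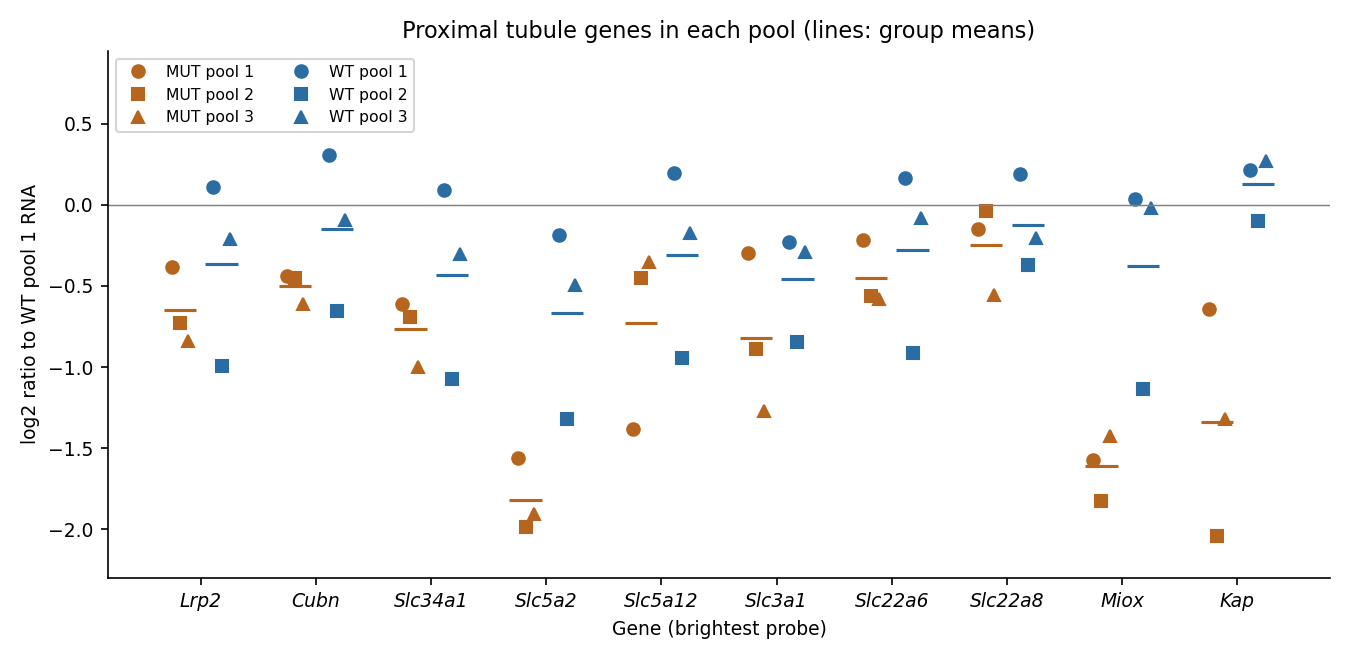
Log2 ratio to WT pool 1 RNA (y axis) of the brightest probe of each gene (x axis) in MUT pools 1 to 3 (brown, left) and WT pools 1 to 3 (blue, right). Horizontal lines are group means. The blue square, WT pool 2, is the lowest WT point for each gene and lies among or below the brown points except for Slc5a2, Miox and Kap.

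The endocytic receptors come first. Lrp2, which encodes megalin, had log2 ratios of -0.39, -0.73 and -0.84 in MUT pools 1 to 3, against 0.11, -0.99 and -0.21 in WT pools 1 to 3. WT pool 2 was the lowest of the 6 pools, so the groups overlapped, and the difference was -0.29 ± 0.27 (SE, 3 pools per group, limma adjusted p = 0.467, 95% interval -0.91 to 0.33). Cubn, which encodes cubilin, had -0.44, -0.45 and -0.61 in MUT pools and 0.31, -0.65 and -0.10 in WT pools at its brighter probe. Here too WT pool 2 was lowest, and the difference of -0.36 ± 0.22 (SE) did not pass (limma adjusted p = 0.276). The dimmer Cubn probe gave a difference of 0.00 ± 0.17 (SE), and lay up to 0.44 from the brighter one within a pool.

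Among the sodium-coupled transporters, Slc34a1 encodes the main phosphate cotransporter of the brush border. Its ratios were -0.61, -0.69 and -0.999 in MUT pools, against 0.09, -1.08 and -0.31 in WT pools. WT pool 2 lay below the lowest MUT pool, and the difference was -0.34 ± 0.27 (SE, limma adjusted p = 0.4, 95% interval -0.97 to 0.30). The second Slc34a1 probe gave -0.27 ± 0.25 (SE) and lay at most 0.27 from the first in any pool. Slc5a2 encodes SGLT2, the glucose cotransporter of the early proximal tubule. It had -1.56, -1.99 and -1.91 in MUT pools, against -0.19, -1.32 and -0.50 in WT pools. The groups did not overlap, although WT pool 2 came within 0.3 of the highest MUT pool, and Slc5a2 fell by 1.15 ± 0.27 on the log2 scale (SE, limma adjusted p = 0.0182, 95% interval -1.78 to -0.52).

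Slc5a12 encodes a sodium-coupled lactate transporter. Its brighter probe read -1.38, -0.45 and -0.35 in MUT pools and 0.20, -0.94 and -0.17 in WT pools. MUT pool 1 was lowest and WT pool 2 next to it, with a difference of -0.42 ± 0.35 (SE, limma adjusted p = 0.409). At the dimmer probe MUT pool 1 read -0.18, which is 1.199 higher than at the brighter one, and the difference was 0.06 ± 0.31 (SE), so the probes of this gene disagree in sign. The low value of Slc5a12 in MUT pool 1 thus rests on 1 probe of 2. Slc3a1 encodes rBAT, the heavy subunit of the cystine and dibasic amino acid transporter. It had -0.30, -0.89 and -1.27 in MUT pools, against -0.23, -0.85 and -0.29 in WT pools. MUT pool 1 lay with WT pools 1 and 3, and WT pool 2 with MUT pool 2, and the difference of -0.36 ± 0.26 (SE) did not pass (limma adjusted p = 0.344). Slc3a1 passed without MUT pool 1, at -0.63 (limma adjusted p = 0.0306). That pool held its highest MUT value, so a larger fall follows from leaving it out, and nothing is read from this call. With any other single pool left out Slc3a1 did not pass, and the lowest limma adjusted p was 0.199, without WT pool 2. Of 19 alternatives Slc3a1 passed in 2, the other being a fit with array weights, at -0.59 (limma adjusted p = 0.0417).

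The organic anion transporters OAT1 and OAT3 are encoded by Slc22a6 and Slc22a8. Slc22a6 had -0.22, -0.56 and -0.58 in MUT pools, against 0.16, -0.92 and -0.08 in WT pools, with WT pool 2 the lowest of all. Its difference was -0.17 ± 0.26 (SE, limma adjusted p = 0.662, 95% interval -0.79 to 0.44). Slc22a8 had -0.15, -0.04 and -0.56 in MUT pools, against 0.19, -0.37 and -0.20 in WT pools, and WT pool 2 lay within the MUT range. The difference of Slc22a8 was -0.12 ± 0.19 (SE, limma adjusted p = 0.669), the smallest of the 10. The intervals of both genes include falls of over 0.5, so a change of that size was not resolved.

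Miox encodes myo-inositol oxygenase, a kidney enzyme that breaks down inositol. Its ratios were -1.57, -1.83 and -1.43 in MUT pools, against 0.03, -1.14 and -0.02 in WT pools. WT pool 2 was far below the other WT pools but above the highest MUT pool, and Miox fell by 1.23 ± 0.30 (SE, limma adjusted p = 0.0195, 95% interval -1.93 to -0.54). Kap encodes kidney androgen-regulated protein, an abundant proximal tubule transcript of mice. It had -0.64, -2.04 and -1.32 in MUT pools, against 0.22, -0.10 and 0.27 in WT pools. Kap had the widest spread among MUT pools (SD 0.70) and the narrowest among WT pools (SD 0.20), with a fall of 1.47 ± 0.31 (SE, limma adjusted p = 0.012). Its WT pool 2 value was 0.34 below the mean of WT pools 1 and 3, where Miox was 1.14 below it.

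The groups did not overlap for Slc5a2, Miox and Kap, lower in MUT pools, which is 3 of 10 genes, against 28.3% of all tested genes. These calls changed when a library was left out. Without WT pool 3 the number called was 0 of 10, with limma adjusted p between 0.0586 and 0.0865 for Slc5a2, Miox and Kap. Without WT pool 1 or without MUT pool 2 it was 1, Kap, and without WT pool 2 it was 5.

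WT pool 2 was lower than WT pools 1 and 3 for all 10 genes, where this held for 37.2% of tested genes. It lay over 0.5 below the mean of WT pools 1 and 3 for 8 of 10, all but Slc22a8 and Kap, where 3.17% of tested genes did. With arrays scaled to spike-in controls WT pool 2 was the lowest WT pool for 6 of 10 genes. The median of this gap was -0.95 over the 10 genes and -0.01 over all tested genes. For Lrp2, Cubn, Slc34a1 and Slc22a6 WT pool 2 was below all 5 other pools, where 10.1% of tested genes were. A single pool allows no test of this gap. The 10 genes were chosen with earlier results of these data known, so nothing is read from these counts against their backgrounds. The Cy3 signal of the same WT pool 1 RNA, read on 6 arrays, had an SD of 0.06 to 0.21 (log2) for these genes, with a median of 0.08. That SD covers repeat reading of 1 RNA and not the spread between pools. The dimmer probe of Cubn gave a gap of -0.16, against -0.76 at the brighter one, while the other probes of Slc34a1 and Slc5a12 gave -0.88 and -0.996.

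Set against WT pools 1 and 3, the MUT pools were lower for each of the 10 genes, by 0.24 for Slc22a8 to 1.62 for Miox. The median of this difference over all tested genes was -0.02. WT pool 2 was singled out as low for these genes, so a larger fall without it follows from that choice, and nothing is read from the counts below against their backgrounds. Falls were called for 5 of 10 genes, Cubn, Slc34a1, Slc5a2, Miox and Kap, against 16% of all genes tested without WT pool 2. Cubn fell by 0.61 ± 0.15 (SE, 3 MUT and 2 WT pools, limma adjusted p = 0.0378) and Slc34a1 by 0.66 ± 0.18 (SE, limma adjusted p = 0.0459). Lrp2 was at -0.60 ± 0.18 (SE) and did not pass (limma adjusted p = 0.0609). The MUT pools lay below both WT pools for 9 of 10 genes, all but Slc22a8, where this held for 32.5% of tested genes. For Slc3a1 the nearest values were -0.295 in MUT pool 1 and -0.291 in WT pool 3.

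**Figure D2:**
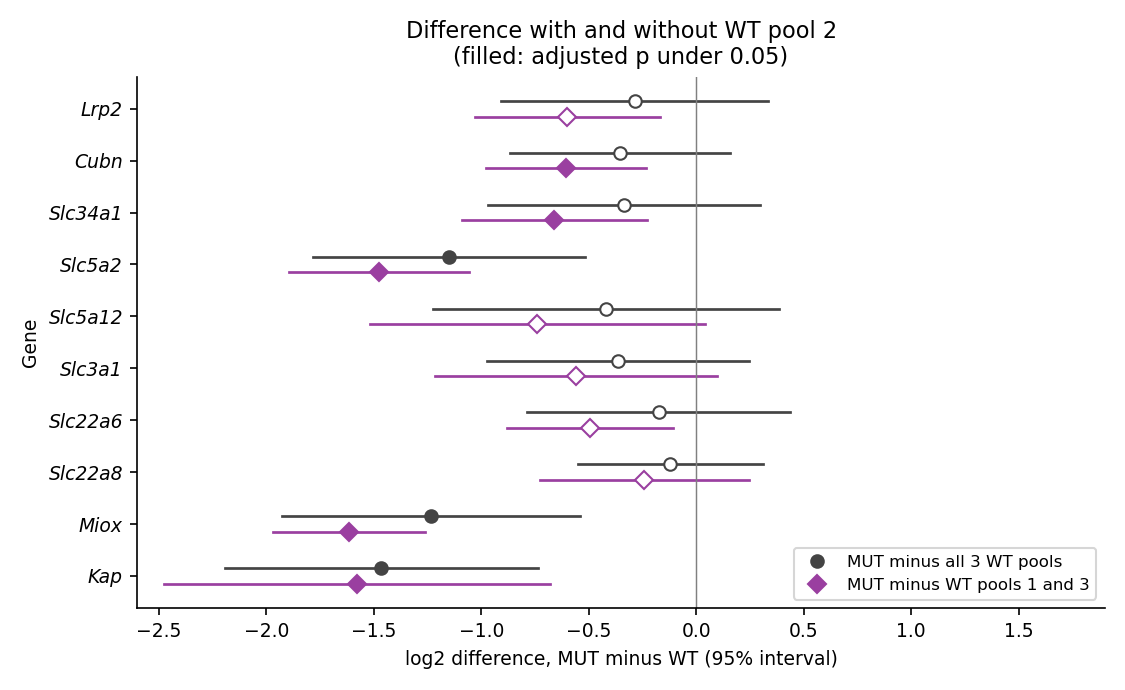
Log2 difference, MUT minus WT, with its 95% interval (x axis) for each gene (y axis), against all 3 WT pools (grey circles) and against WT pools 1 and 3 (purple diamonds). Filled symbols passed an adjusted p under 0.05: 3 genes with WT pool 2 and 5 without it.

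WT pools 2 and 3 lay in the other row of the slide from the MUT pools and WT pool 1. Within row 1, where WT pool 1 was the sole WT sample, the MUT pools were lower for each of the 10 genes, with differences of -0.44 for Slc22a8 to -1.64 for Miox. Over all tested probes the median of this difference was -0.0055. With the row as a block the difference is that between the MUT pools and WT pool 1, a single array that compared its RNA with itself, assumed to vary like the others. It was -1.63 for Slc5a2 and -1.55 for Kap, and nothing is read from the 1 of 10 genes called lower in that fit, against 7.45% of tested genes. Row 2 held WT pools 2 and 3 alone. Within it WT pool 2 was the lower for 10 of 10 genes, which follows from its being the lowest WT pool for each.

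The genes that work with the 10 were taken in 6 lists, and each was read at its brightest probe. Partners of megalin and cubilin in endocytosis were lower in 2 of 10 cases, higher in 1 and did not pass in 7 (median -0.18). Clcn5, the endosomal chloride exchanger, fell by 1.35 ± 0.20 (SE, limma adjusted p = 0.00276), and Gipc1, an adaptor that binds the tail of megalin, by 0.61 ± 0.12 (SE). Fcgrt, the neonatal Fc receptor that recycles albumin, rose by 0.68 ± 0.19 (SE), and was at 0.56 without WT pool 2, where it did not pass (limma adjusted p = 0.103). Lrpap1, the chaperone of megalin, was at -0.33 and Dab2, its endocytic adaptor, at 0.36, and neither passed. The share called lower in these lists stands against 18.8% of all tested genes.

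Apical transporters were lower in 4 of 17 tested cases and higher in none (median -0.46). Slc15a2, a peptide transporter, had -1.01, -0.99 and -0.98 in MUT pools, against 0.03, 0.03 and 0.12 in WT pools, a fall of 1.05 ± 0.09 (SE, limma adjusted p = 0.000441). Aqp1, the water channel of the proximal tubule and thin descending limb, fell by 1.10 ± 0.13 (SE). WT pool 2 differed from the mean of WT pools 1 and 3 by -0.04 for Slc15a2 and -0.09 for Aqp1, where the smallest gap among the 10 genes was -0.34, for Kap. Slc13a1, a sodium sulfate cotransporter, fell by 1.38 ± 0.22 (SE) and Slc17a3, an organic anion and phosphate transporter, by 1.24 ± 0.27 (SE). Slc5a10, at -0.89, and Slc27a2, at -0.61, did not pass and had WT pool 2 gaps of -1.15 and -1.04.

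Basolateral transporters were lower in 3 of 11 tested cases and higher in none (median -0.68). Slc16a10, an aromatic amino acid transporter, fell by 1.06 ± 0.13 (SE, limma adjusted p = 0.00133) with WT pool 2 at -0.19 beside -0.17 in WT pool 1. Slc7a8, a neutral amino acid exchanger, fell by 0.89 ± 0.23 (SE) and Slc13a3, a dicarboxylate transporter, by 1.06 ± 0.30 (SE). Slco1a6, at -0.77, and Slc4a4, the bicarbonate cotransporter, at -0.69, did not pass.

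Brush border proteins were lower in 4 of 11 tested cases and higher in 2 (median -0.45). Ggt1, gamma-glutamyl transferase, fell by 1.09 ± 0.17 (SE, limma adjusted p = 0.00295), Mme, the peptidase neprilysin, by 1.01 ± 0.14 (SE) and Mep1b, a meprin subunit, by 0.87 ± 0.21 (SE). Cltrn, at -0.45, and Mep1a, at -0.46, did not pass.

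Enzymes of proximal metabolism were lower in 3 of 21 tested cases and higher in none (median -0.28). Inmt, an indole methyltransferase, fell by 1.20 ± 0.11 (SE, limma adjusted p = 0.000491), Cyp4b1, a cytochrome P450, by 1.48 ± 0.24 (SE) and Hao2, a peroxisomal hydroxyacid oxidase, by 0.57 ± 0.17 (SE). G6pc, the last enzyme of gluconeogenesis, at -0.60, and Ugt2b38, a glucuronosyltransferase, at 0.75, did not pass. Among transcription factors of the segment, 2 of 6 were lower and none higher (median -0.29). Nr1h4, the bile acid receptor FXR, fell by 0.91 ± 0.27 (SE, limma adjusted p = 0.0411). Hnf4a, at 0.54, and Ppara, at -1.15, did not pass. Without WT pool 2, which was low in these lists too, the number lower was 3 of 10 endocytosis partners, 9 of 17 apical and 5 of 11 basolateral transporters, 5 of 11 brush border proteins, 10 of 21 enzymes and 1 of 6 transcription factors, against 16% of tested genes. The number higher was then 1, among brush border proteins, and 0 in the other 5 lists. Slc5a10, Slco1a6, Cltrn, Mep1a and G6pc passed as lower without WT pool 2. Since the pool left out was low in these lists, nothing is read from these counts against the 16%.

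**Figure D3:**
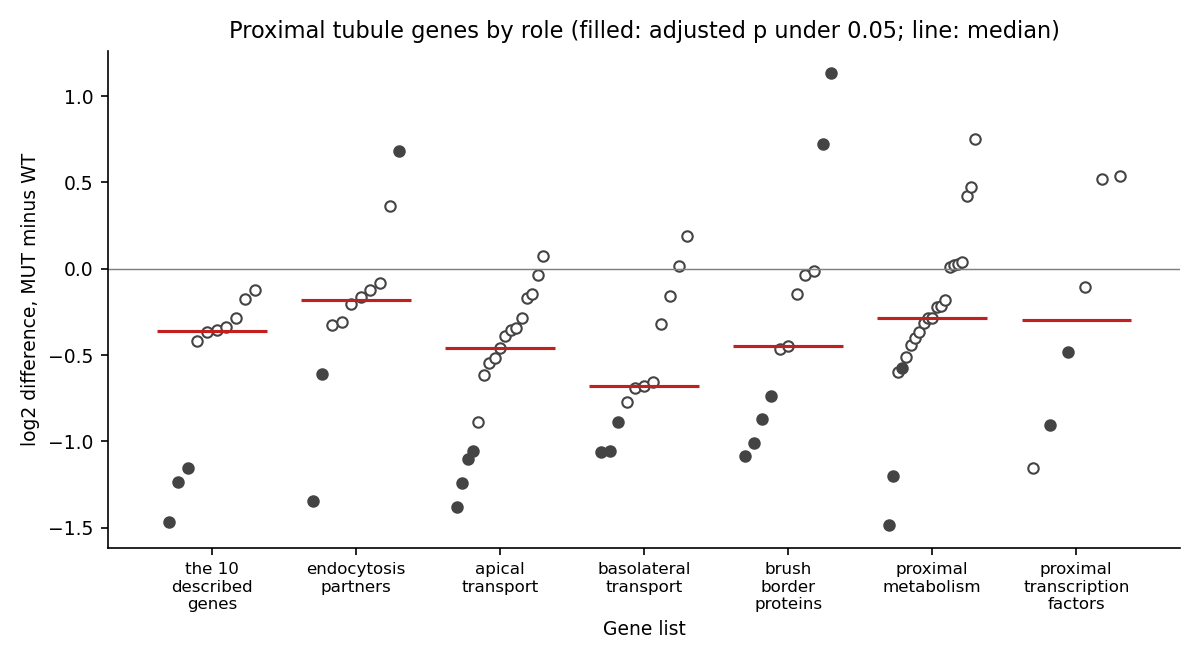
Log2 difference, MUT minus WT (y axis), of each tested gene in the 10 described genes and 6 lists by role (x axis). Filled points passed an adjusted p under 0.05 and red lines are medians, which lie between -0.68 and -0.18. Filled points below 0 outnumber those above 0 in each group, by 3 to 0 among the 10 genes and by 4 to 2 among brush border proteins. Falls also outnumbered rises over all tested genes, with 18.8% called lower and 14% higher.

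WT pool 2 was also set apart in the other proximal lists. Its value was the lowest of the WT pools for 16 of 17 apical transporters, 10 of 11 basolateral transporters, 10 of 11 brush border proteins and 18 of 21 metabolic enzymes. It was so for 8 of 10 endocytosis partners, 5 of 6 transcription factors and 37.2% of all tested genes. The trait was not confined to proximal lists. It held for 8 of 8 loop and distal, 8 of 8 intercalated cell, 2 of 3 erythroid, 4 of 7 podocyte and 4 of 8 endothelial genes. The median gaps of these lists were -0.77, -0.61, -1.14, -0.56 and 0.04. It held for 3 of 7 principal cell and 3 of 8 ureteric lineage genes, and for fewer in each other cell type list. Slco4c1, an organic anion transporter, was the exception among the basolateral genes and is named after its values were seen, with 1.47 in WT pool 2 against 0.10 and 0.65 in WT pools 1 and 3. The 6 genes whose 6-array profile lay nearest to the median profile of the 10, by root mean square distance over 14575 genes, were Fbp1, Prodh2, Aldh6a1, Slc6a18, Fmo1 and Hopx. Fbp1, an enzyme of gluconeogenesis, was 0.08 (log2) from that profile, with -0.54, -0.65 and -1.06 in MUT pools and 0.04, -0.89 and -0.20 in WT pools. Hopx, the sixth, was 0.13 from it. Among the 10 themselves the distances were 0.07 for Lrp2 and 0.09 for Slc34a1, but 0.67 for Miox, 0.69 for Kap and 0.82 for Slc5a2.

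Markers of other cell types differed between the same pools, where 18.8% of all tested genes were called lower in MUT pools. The 8 loop of Henle and distal tubule genes were all lower in MUT pools, at medians of -3.15 to -2.73, and their median was -0.77 in WT pool 2 against -0.02 and -0.01 in WT pools 1 and 3. Their summed Cy5 signal, after quantile normalization between arrays, was 25366 to 32211 in MUT pools, against 105482 in WT pool 2 and 181342 and 186789 in WT pools 1 and 3. On the same scale the summed signal of the 10 proximal genes was 38840 to 48144 in MUT pools, against 44720 in WT pool 2 and 87148 and 77081 in WT pools 1 and 3. As scanned, before background correction and quantile normalization, the sums of the 10 genes were 67754, 49272 and 40477 in MUT pools 1 to 3, against 87037, 30570 and 64158 in WT pools 1 to 3, so the place of WT pool 2 depends on those steps. Miox alone gave 20281, 15740 and 16211 of these MUT sums and 37892, 12134 and 29798 of these WT sums. A sum thus weighs the brightest genes most and is not a level of each of the 10. Gene by gene, WT pool 2 was below the MUT range for 4 of the 10, within it for 3 and above it for 3. Over all tested genes it was below that range for 33% and within it for 31.1%, so nothing is read from these counts. The loop and distal genes had a higher sum in WT pool 2 than in any MUT pool. Of 8 intercalated cell genes all were lower in MUT pools, with a summed signal of 4996 to 6348, against 24291 in WT pool 2 and 34422 and 38426 in WT pools 1 and 3. The 3 tested erythroid genes had medians of -2.39 to -2.203 in MUT pools, against -1.10 in WT pool 2 and 0.02 and 0.19 in WT pools 1 and 3.

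Principal cell genes, of the sorted type, had medians of -2.18, -2.01 and -1.84 across the MUT pools, and -0.12, -0.19 and -0.08 across the WT pools. Stroma genes were higher in 6 of 8 cases, with medians between 1.27 and 1.61 for MUT, and 0.08, -0.90 and -1.52 for WT pools 1, 2 and 3. Nephron progenitor genes were higher in 7 of 8 cases, at 1.54 to 2.06 in MUT pools and -0.19 to 0.23 in WT pools. Over all tested genes 14% were called higher. Above background on all 6 arrays were 8 of 8 listed genes for intercalated cells, loop and distal tubule, stroma and nephron progenitors, 7 of 8 for principal cells and 3 of 8 for erythroid cells. The part of the cell mixture in the values of the 10 genes was not tested.

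**Figure D4:**
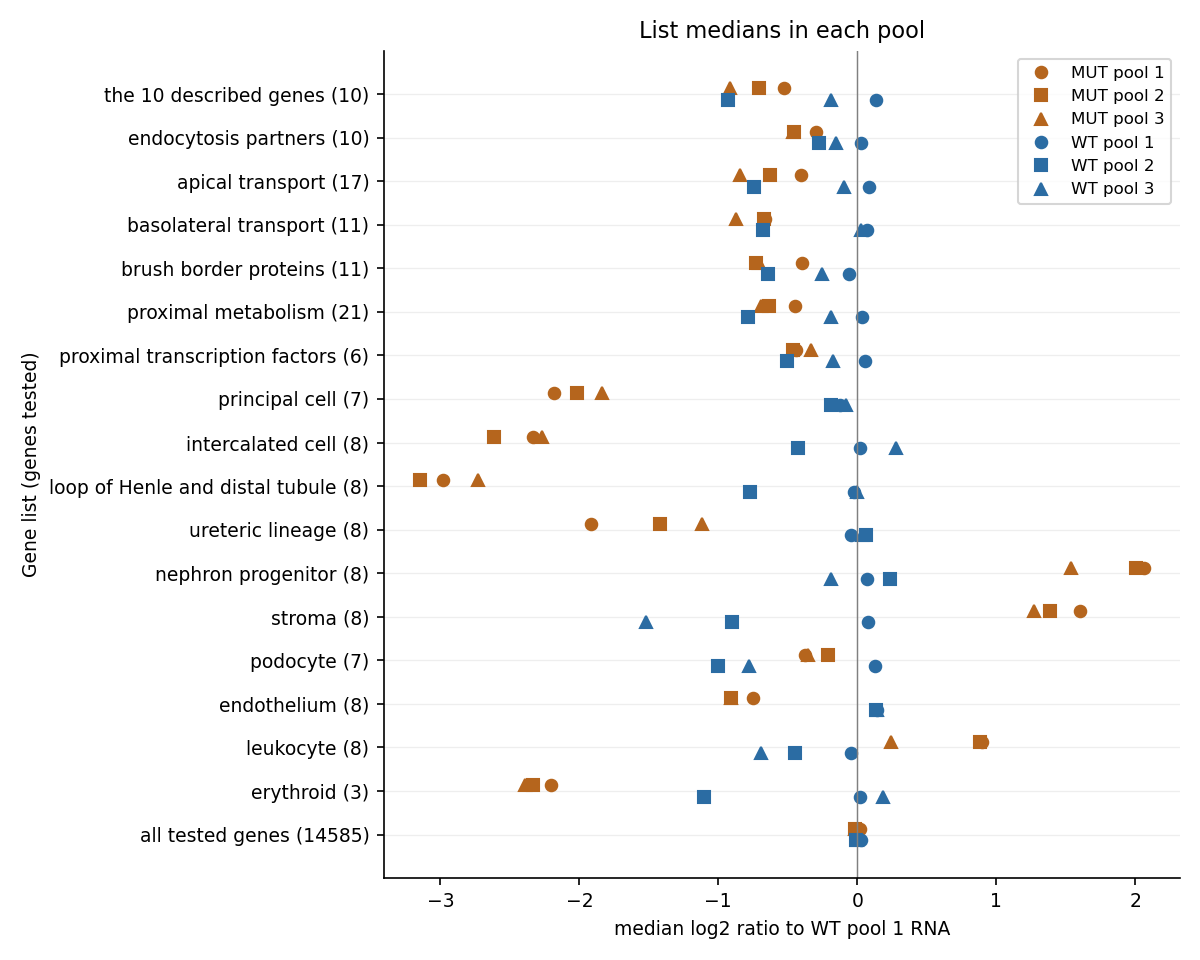
Median log2 ratio to WT pool 1 RNA (x axis) of the 10 described genes, 6 proximal tubule lists, 10 cell type lists and all tested genes (y axis, number of genes in parentheses) in MUT pools (brown, upper) and WT pools (blue, lower). WT pool 2 (blue square) lies beside the lowest MUT pool for the 10 genes, at -0.93, and apart from them for principal, intercalated and loop and distal genes.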

How the data were processed

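Pools of sorted cells, 3 MUT and 3 WT, were read on 6 two-colour Agilent arrays, each from 0.5 µg of total RNA per labelling, per the labels. The deposited scanner files hold spot intensity (median signal and median local background). The submitters' processing notes name Agilent Feature Extraction 10.7.3.1. The deposited value table holds the scanner software's log10 ratio of Cy5 to Cy3, within 0.00499 of the scanner files, with a median of 0 on each array. It was used as an alternative. Its scale and direction follow from that match, and how the software centred it is not stated.

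Background was corrected by normexp (offset 50) and log2 ratios were normalized by loess within arrays. Control spots and outlier spots (196 to 403 per array) were left out, and 0 spots were saturated. Repeat spots were averaged. A probe was tested if its Cy5 signal was well above background on each array of at least 1 group (29002 of 55681). RefSeq accessions, without versions, named 27509 probes through the RefSeq table of GRCm38.p6, and the 10 genes matched. The headers name another assembly, so array coordinates are not used. A gene is read at its brightest tested probe. MUT was compared with WT by limma (lmFit, eBayes, Benjamini-Hochberg over all tested probes, call at 0.05). Tools were R 4.3.3, limma 3.58.1, data.table (version 1.17.8), Python 3.11.15, pandas 2.3.3 and matplotlib 3.10.9.

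The 10 genes and the lists were chosen with earlier results of these data known. The text names the 10 genes, up to 4 called genes of each proximal list by adjusted p and 2 that were not called by size, and the 6 nearest profiles. Some genes of the lists are counted but not reported by name here. The labels call the pools biological replicates. The 3 arrays per group limit the precision of every value.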

Additional observations from a re-analysis of the deposited data

How the results depend on the processing

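The median gap of WT pool 2 was -1.08 to -0.81 over 8 alternatives, and WT pool 2 was the lowest WT pool for 10 of 10 genes in each but spike-in scaling, where it was for 6. Alternatives that change only which probes are tested leave this gap at -0.949 by construction. The median difference of the 10 genes was -0.36, and -0.0718 under median centring. Leaving out 1 pool gave -0.634 (without WT pool 2) to -0.148 (without WT pool 1). It was -0.835 with slide row as the block and turned to 0.621 under spike-in scaling, where the median of all tested probes was 0.98. There the differences were 0.693 for Lrp2, 0.625 for Cubn, 0.643 for Slc34a1, 0.56 for Slc5a12, 0.617 for Slc3a1, 0.806 for Slc22a6 and 0.86 for Slc22a8. Slc22a8 was called higher (limma adjusted p = 0.0422) and 0 of 10 were lower. The spike-in setting adds a shift per array, of which 0.28 in WT pool 2 and 0.93 in WT pool 3 differ within a group. With median centring Lrp2 was at 0.0858, Slc22a6 at 0.117 and Slc22a8 at 0.164, and 1 gene, Kap, was called. Slc22a8 was at 0.211 in the Cy5 channel alone, 0.0339 without MUT pool 3 and 0.039 without WT pool 1, where Slc22a6 was at 0.0459. Over single pools left out, Slc22a6 ranged from -0.494 to 0.0459 and Slc22a8 from -0.242 to 0.039. For these sign changes the cause was not tested. Slc5a2, Miox and Kap stayed negative in 19 of 19 alternatives, and remained called in 11, 13 and 16 of them. Their limma adjusted p ranged over 0.00272 to 0.684, 0.00151 to 0.541 and 0.000184 to 0.241. Some of the 19 change only the probe filter, the block by pool number, the variance model or the averaging of probes. Those leave the estimates of Slc5a2, Miox and Kap at -1.15, -1.23 and -1.47 by construction, so their sign could not change there.

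Leaving out a pool gave 0 to 5 called genes and 3831 to 9536 called probes, against 3 and 7584 with all pools. The deposited value table and the scanner software's processed signals each gave 2 called genes, Miox and Kap. Slc5a2 did not pass there (limma adjusted p = 0.0565 and 0.0544). Array weights gave 4, Slc5a2, Slc3a1, Miox and Kap. Probes called were 19459 under spike-in scaling and 2194 with slide row as the block, which called 1 of the 10 genes. Pool number as a replicate block called 7245 probes and the same 3 genes, and changed no call of the 10. The labels tie pools of 1 number to no shared source, and the deviations of same-numbered pools correlated at 0.143, 0.072 and 0.197. Each MUT pool correlated best with the WT pool of its own number, but whether this exceeds chance was not tested. Probe choice also limits Slc5a12 and Cubn, whose 2 probes differed by up to 1.199 and 0.44 in a pool.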
